A study of Mus musculus with 12 samples.

Results

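The 45 genes described here carry out mitosis and the step from G2 into it: entry kinases and cyclins, kinetochore and checkpoint proteins, the anaphase machinery, condensin and other chromosome proteins, the chromosomal passenger complex, spindle motors and cytokinesis factors. They were chosen by gene symbol from the deposited normalized count table, where they hold 47 of 54547 gene IDs. The study sequenced RNA from sorted mouse brain cells in 4 groups of 3 libraries. GFP+ cells and CD11b+ cells came from tumors of Msi1-CreER;RasV12 mice, and the same kinds of cell came from the cerebellum of Msi1-CreER;GFP mice as controls. All mice had a mixed 129;C57BL/6 background and carried CreER, an inducible Cre recombinase, driven by Msi1, a gene of neural stem and progenitor cells, so recombination depends on where Msi1 was active. CD11b, encoded by Itgam, marks microglia, macrophages and other myeloid cells. Tissue and genotype differ together between tumor and control, and cannot be told apart. The labels state no ages, no number of mice behind a library and no pooling, so the p-values measure the spread between libraries, which may in part be technical.

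In G2, cyclins A and B activate the kinase Cdk1, and Polo-like and Aurora kinases help to start mitosis. Kinetochores attach chromosomes to the spindle, and the spindle checkpoint holds back the anaphase-promoting complex until all are attached; that complex with its activator Cdc20 then marks securin and cyclin B for destruction. Most of these genes are transcribed mainly in G2 and mitosis under the DREAM and MMB complexes and Foxm1, and in the adult cerebellum most cells are postmitotic.

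A normalized count is the number of reads of a gene divided by a factor for the library. In every library 99.99% or more of the deposited values could be divided without remainder (tolerance 0.05) by 1 number, the worth of a single read, and the libraries then held 2951629 to 34601205 reads. That number was found on low values and refined on higher ones; it was closest to the rounding of the table in RasV12 GFP+ 1 and 3 and Control CD11b+ 3, where the recovered reads are least certain. A read was worth 0.358 to 1.497 normalized counts in 10 libraries but 4.46 and 5.54 in RasV12 CD11b+ 1 and 2, the libraries with the fewest reads. Itgam had no reads in the Control GFP+ libraries and reached 0.5 in 1 RasV12 GFP+ library; its range was 5010 to 5256 in Control CD11b+ against 1350 to 3101 in RasV12 CD11b+. Ptprc, a leukocyte marker, was at 1.8 to 181 in GFP+ and at 5256 to 9032 in CD11b+ libraries. Hras lay between 2308.5 and 3327 in Control GFP+ and between 2577 and 3748 in RasV12 GFP+; the labels do not say which Ras gene is meant, and counts per gene do not show the mutation. Msi1 was at 18.6 to 84.9 in GFP+ libraries, at 192 in Control CD11b+ 2, at 271 in RasV12 CD11b+ 2 and at 0 to 13.3 in the other CD11b+ libraries.

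Most of the genes were at or near 0 in control GFP+ cells and had reads in the other 3 groups. Nek2 and Kif11 are each listed under 2 gene IDs, all at 0 in all 12 libraries; 151 of the 224 coding genes with such a second ID are at 0 under both, so their reads may have been lost between the copies, and the zeros say nothing of expression. The other 43 passed the filter of at least 10 normalized counts in at least 3 libraries. In Control GFP+ 1, 2 and 3, reads were found for 24, 26 and 28 of the 43, and 51 of 129 values were 0; in each other group 1 of 129 was 0. The median member of Control GFP+ stood at 2.4, 1.6 and 4.1 normalized counts, and that of RasV12 GFP+ at 114, 112 and 189. Control CD11b+ had medians of 80.0, 190.1 and 71.2, and RasV12 CD11b+ of 383, 482 and 448. The lowest group did not overlap with any other. In bulk RNA, fewer dividing cells and less of these RNAs per cell cannot be told apart.

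**Figure D1:**
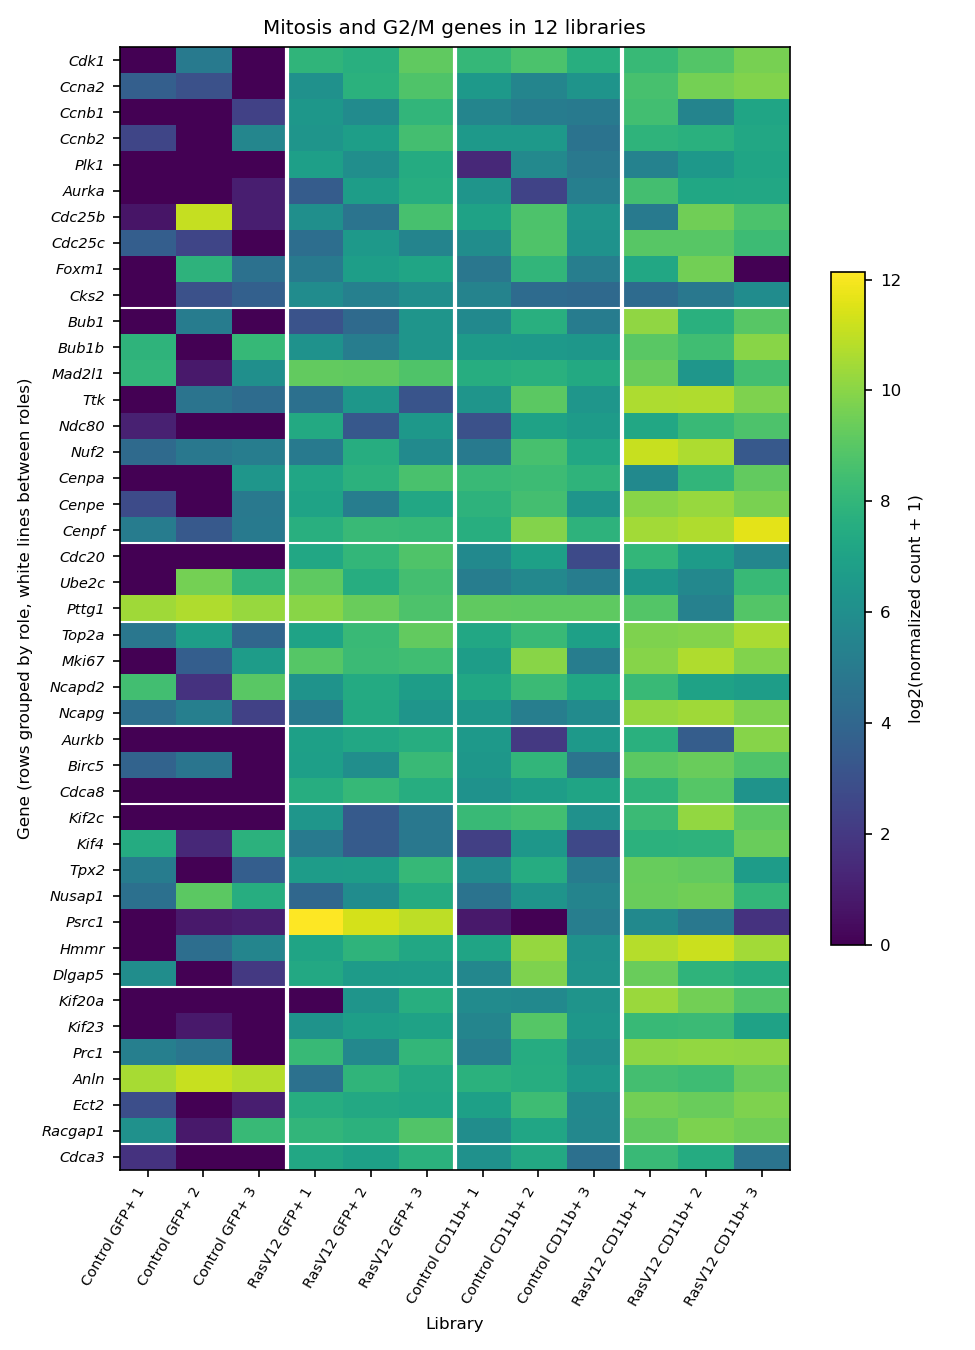
Level of the 43 tested genes (rows, grouped by role) in the 12 libraries (columns, by group) as log2(normalized count + 1). Dark cells, at 0, fill much of the 3 Control GFP+ columns, where 51 of 129 values are 0, and Psrc1, Anln and Pttg1 stand apart from the other rows in GFP+ cells.

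The summed level was less far apart, because a few genes carried much of it. The sum over the 43 genes was 4241, 7952 and 5298 normalized counts in Control GFP+ and 11066, 9150.5 and 11599 in RasV12 GFP+. Psrc1 alone made up 40.9, 28.4 and 16.8% of the sum in the RasV12 GFP+ libraries. Without Psrc1 and Anln, 2 genes left out after their values were seen, the sums were 2739, 5718 and 3525 against 6523, 6312 and 9492. The groups stayed apart, with Control GFP+ 2 close below RasV12 GFP+ 2. In that control library Cdc25b, a phosphatase that activates Cdk1, was at 2132 against 0.6 and 1.0 in the other 2.

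Between RasV12 and control GFP+ cells, 16 of the 43 genes were higher and 1, Anln, was lower. The test was limma-trend on log2(normalized count + 1) with Benjamini-Hochberg adjusted p under 0.05 over 29835 genes, of which 4.14% were higher and 2.65% lower. The share of members called higher was 37.2%. Their median log2 fold change was 4.12, against 0.56 over all genes tested, and 39 of 43 values were positive; with the 6 genes that had no reads in any control library set at their lower bounds, the median was also 4.12. The 3 RasV12 libraries lay above the 3 controls for 28 members and below for 2, Anln and Pttg1, against 17.2% and 10.9% of all genes. The genes called by role were 5 of 10 entry regulators, 3 of 9 kinetochore and checkpoint genes, 1 of 3 anaphase genes, 2 of 3 passenger genes, 2 of 7 spindle genes, 2 of 6 cytokinesis genes and Cdca3. None of the 4 chromosome genes passed limma-trend, of which 3 were at an unadjusted p under 0.05; edgeR called 0 and DESeq2 called 1.

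**Figure D2:**
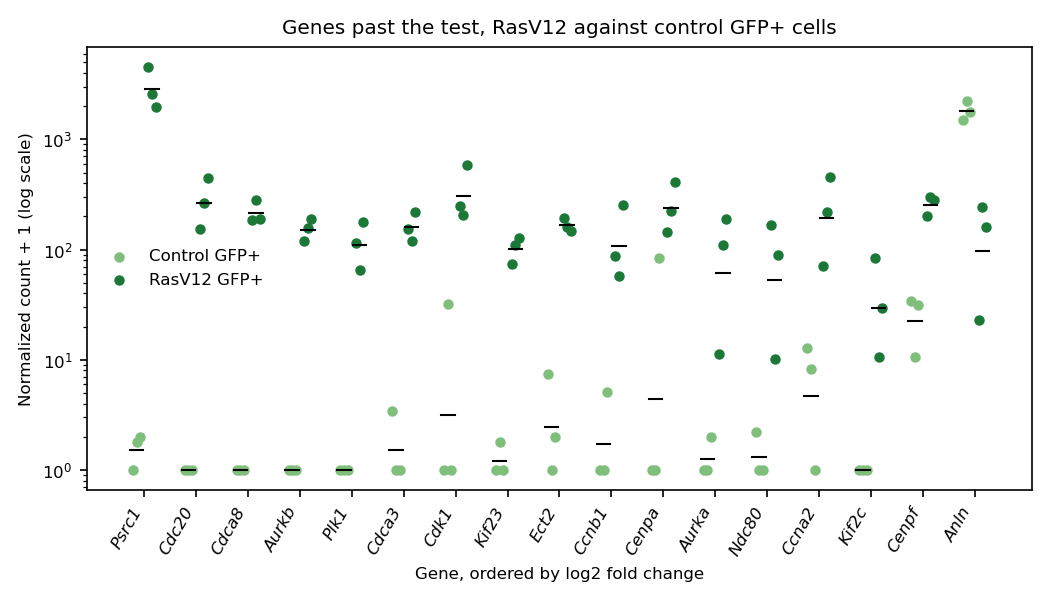
Normalized count plus 1 (log scale) of the 17 genes called in GFP+ cells, with 1 point per library for Control GFP+ and RasV12 GFP+. In all 17 the 3 points of one group lie apart from the 3 of the other, and Anln is the gene with the controls on top, at 1503 to 2233 against 22.1 to 243.

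The promoters of the 4 called genes with the smallest adjusted p in this comparison are printed to show the elements that mitotic genes are known for. They are the RefSeq promoters of GRCm38.p6, 250 bases before to 50 after the start, on the gene's strand. Capitals mark the CHR, the cell cycle gene homology region that DREAM and MMB bind (TTTGAA or TTTAAA), and the CCAAT box that NF-Y binds, each on either strand (TTCAAA and ATTGG on the other).
Cdca8: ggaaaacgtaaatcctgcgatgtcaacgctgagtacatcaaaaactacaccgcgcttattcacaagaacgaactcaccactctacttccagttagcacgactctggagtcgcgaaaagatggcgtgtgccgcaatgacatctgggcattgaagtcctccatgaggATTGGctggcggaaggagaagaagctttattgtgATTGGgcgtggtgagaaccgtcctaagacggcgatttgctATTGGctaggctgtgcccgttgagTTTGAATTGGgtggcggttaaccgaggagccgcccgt
Psrc1: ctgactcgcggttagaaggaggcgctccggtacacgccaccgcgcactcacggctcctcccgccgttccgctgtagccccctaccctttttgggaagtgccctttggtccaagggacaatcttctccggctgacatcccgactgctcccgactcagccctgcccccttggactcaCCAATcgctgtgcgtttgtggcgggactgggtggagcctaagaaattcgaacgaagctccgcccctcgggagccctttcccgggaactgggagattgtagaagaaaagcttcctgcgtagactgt
Cdc20: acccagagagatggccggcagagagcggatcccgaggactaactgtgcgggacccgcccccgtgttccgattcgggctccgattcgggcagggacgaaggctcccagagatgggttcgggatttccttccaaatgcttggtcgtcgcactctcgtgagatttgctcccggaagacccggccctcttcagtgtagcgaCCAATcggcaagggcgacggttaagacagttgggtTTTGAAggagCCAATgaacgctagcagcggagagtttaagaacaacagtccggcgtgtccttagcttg
Ect2: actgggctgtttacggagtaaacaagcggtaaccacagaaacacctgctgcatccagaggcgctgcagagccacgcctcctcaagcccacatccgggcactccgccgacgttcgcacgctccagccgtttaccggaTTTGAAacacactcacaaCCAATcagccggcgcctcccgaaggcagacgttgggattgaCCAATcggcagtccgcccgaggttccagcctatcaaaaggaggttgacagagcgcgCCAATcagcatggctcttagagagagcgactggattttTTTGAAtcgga
The Cdca8 promoter (chr4:124936868-124937167, minus strand) holds 4 CCAAT boxes and 1 CHR, which overlaps the last box; its start lies 2394 bases from the start of the gene in GENCODE. The Psrc1 promoter (chr3:108383588-108383887, plus strand) holds 1 CCAAT box, 75 bases upstream, and neither form of the CHR marked here. Other forms of the CHR were not searched for. In the Cdc20 promoter (chr4:118437294-118437593, minus strand) CCAAT boxes 53 and 8 bases upstream flank the homology region, which lies 18 bases upstream. The Ect2 promoter (chr3:27153829-27154128, minus strand) holds 2 CHRs and 3 CCAAT boxes. For Psrc1 and Ect2, which have 2 promoters in the table, the one nearest the GENCODE start is shown.

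Both elements were common among the members. Of the 45 genes, 38 matched the promoter table with 41 promoters. A CHR of either form marked above was in 31 of the 41 promoters (75.6%) against 27.6% of the 32851 promoters in the table. A CCAAT box was in 33 (80.5%) against 37.4%. Both were in 27 (65.9%) against 10.7%. Among promoters of members called higher in RasV12 GFP+ cells 14 of 16 held a CHR (87.5%). Among those of members tested and not called higher 16 of 23 did (69.6%). These matches describe letters in a window and not binding, and no test was made between the shares.

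Among the entry regulators, Cdk1, Ccna2, Ccnb1, Plk1 and Aurka rose in RasV12 GFP+ cells. Plk1, Polo-like kinase (chr7:122159439-122169873), had no reads in the 3 control libraries and stood at 114, 63.6 and 177 normalized counts in RasV12 GFP+ 1, 2 and 3. Against a floor of 3 reads over the control group, Plk1 was at least 166-fold higher (log2 fold change 6.78 ± 1.25 SE, adjusted p = 0.0055). Cdk1, the kinase that drives mitosis (chr10:69335146-69352938), was at 0, 31.3 and 0 in controls and at 247, 203 and 580.5 in RasV12 libraries (6.60 ± 1.22, adjusted p = 0.00575). The groups of both genes did not overlap. Its partner cyclin A2, Ccna2 (chr3:36564865-36572150), went from 11.9, 7.2 and 0 to 70.4, 217 and 451 (5.34 ± 1.11, adjusted p = 0.0109). Cyclin B1, Ccnb1 (chr13:100778650-100786570), was at 0, 0 and 4.1 in controls and at 85.8, 56.2 and 254 in RasV12 libraries (5.97 ± 1.16, adjusted p = 0.00763). RasV12 GFP+ 3 was the highest library for each of these 4 genes. Aurka, the Aurora kinase of centrosomes (chr2:172356190-172370535), had 1 read among the controls and stood at 10.4, 108 and 189 in RasV12 libraries (5.62 ± 1.34, adjusted p = 0.0226), a ratio of 429 with a counting interval of 76.8 to 16980. The Aurka values span a wide range within RasV12 GFP+, with library 1 the lowest.

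The other entry regulators did not pass. Cyclin B2, Ccnb2, was at 4.8, 0 and 46.8 in controls and at 80.4, 112 and 368 in RasV12 libraries (4.53 ± 1.31, adjusted p = 0.0549), with no overlap. Foxm1, the transcription factor of G2 genes, was at 0, 229 and 22.4 in controls and at 30.3, 109.5 and 141 in RasV12 libraries, so its groups overlapped (adjusted p = 0.718). Cdc25b overlapped as well, and for Cdc25c and Cks2, a Cdk-binding subunit, the groups lay apart with adjusted p = 0.112 and 0.108.

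At the kinetochore, Cenpa, Cenpf and Ndc80 rose. Cenpf, a large outer kinetochore and nuclear protein (chr1:189640606-189688086), was at 33.3, 9.6 and 30.5 in controls and at 200.5, 297.5 and 278 in RasV12 libraries (3.51 ± 0.80, adjusted p = 0.0172). Ndc80, which binds microtubules (chr17:71496100-71526857), was at 1.2, 0 and 0 against 167, 9.2 and 88.3 (5.36 ± 1.36, adjusted p = 0.0303). Cenpa, the histone variant of centromeres (chr5:30666777-30674830), was at 0, 0 and 82.4 against 144.5, 221 and 408 (5.76 ± 1.51, adjusted p = 0.0357). The groups lay apart in all 3 genes, by little for Ndc80 in RasV12 GFP+ 2. The checkpoint genes proper did not pass: Bub1, Bub1b and Ttk overlapped between the groups (adjusted p = 0.331, 0.938 and 0.575), and Mad2l1, at 256, 0.8 and 66.1 against 590, 579 and 449.9, lay apart with adjusted p = 0.113.

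Cdc20, the activator of the anaphase-promoting complex (chr4:118432901-118437352), was among the largest changes. It had no reads in the controls and stood at 153, 266 and 449 in RasV12 GFP+ libraries, at least 397-fold higher over the floor (8.05 ± 1.22, adjusted p = 0.00174). The RNA of securin, Pttg1, went the other way without passing: 1343, 1666 and 1239 in controls and 1009, 652 and 435 in RasV12 libraries (-1.09 ± 0.82, adjusted p = 0.555). Cdc20 targets the securin protein, which was not measured. Pttg1 had the highest level per length of the members in control GFP+ cells, 42.5 ± 6.68 FPKM (SD, n = 3), and so is not a gene that was absent there. Ube2c, the ubiquitin-conjugating enzyme of the complex, overlapped between the groups, with 776 in Control GFP+ 2 and 0 in Control GFP+ 1.

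The passenger complex corrects attachments and then moves to the midzone. Cdca8, Borealin (chr4:124918465-124939311), had the smallest adjusted p of the members: no reads in controls against 186, 280.3 and 189, at least 276-fold higher (7.75 ± 0.97, adjusted p = 0.00053). Aurkb, its kinase (chr11:69045647-69051664), also had no reads in controls and stood at 118, 155 and 188, at least 204-fold higher (7.25 ± 1.59, adjusted p = 0.0148). Birc5, Survivin, was at 13.7, 25.7 and 0 against 115, 63.6 and 301 (4.17 ± 1.28, adjusted p = 0.0704), so the 3 subunits lay above all controls and 2 passed.

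Psrc1, a microtubule-associated protein that works in spindle assembly (chr3:108383839-108388231), had the largest change. It stood at 0, 0.8 and 1.0 normalized counts in controls, 2 reads in all, and at 4520.5, 2596 and 1948 in RasV12 GFP+ libraries (10.86 ± 1.46, adjusted p = 0.000808). No other member reached such a level in RasV12 GFP+ cells: Psrc1 was at 53.9 ± 23.9 FPKM (SD, n = 3), the highest of the members per length, with Pttg1 next at 20.97 ± 8.69. Kif2c, a motor that depolymerizes microtubules (chr4:117159639-117182639), had no reads in controls and stood at 82.2, 9.7 and 28.3, at least 53.7-fold higher (4.89 ± 1.10, adjusted p = 0.0168). Tpx2, Hmmr and Dlgap5, which help to build the spindle, were higher in all 3 RasV12 libraries with adjusted p of 0.0697, 0.0843 and 0.109. Kif4, a chromosome motor, and Nusap1, a microtubule bundler, had negative log2 fold changes of -1.10 and -1.23 with overlapping groups.

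Cytokinesis genes moved in both directions. Ect2, the exchange factor that turns on RhoA at the division plane (chr3:27097222-27153878), was at 6.5, 0 and 1.0 in controls and at 191.5, 158 and 147 in RasV12 GFP+ libraries (6.07 ± 1.0, adjusted p = 0.00278). Kif23, a centralspindlin motor (chr9:61915905-61946774), had 1 read among the controls and stood at 73.6, 109.5 and 126 (6.38 ± 1.07, adjusted p = 0.00314). These values were even across the RasV12 libraries. Kif20a had no reads in controls and 0, 79.7 and 193.5 in RasV12 libraries (adjusted p = 0.106), and Racgap1, the partner of Kif23, overlapped (adjusted p = 0.234).

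Anln, anillin, a scaffold of the contractile ring (chr9:22332012-22389188), was at 1503, 2233 and 1772 in controls and at 22.1, 243 and 159.5 in RasV12 GFP+ libraries, so it fell by 4.23 ± 0.84 on the log2 scale (adjusted p = 0.00825). In mice anillin is also made by myelinating oligodendrocytes. A list of 5 oligodendrocyte genes (Mbp, Mog, Mag, Cnp and Mobp), added after the Anln values were seen, was lower in 5 of 5 genes in the same comparison. Control GFP+ libraries had a summed level of 663312.5 to 1317578.5 for this list and RasV12 GFP+ libraries of 2644.5 to 17198. For Control CD11b+ the sums were 11798.5 to 14272, for RasV12 CD11b+ 5286 to 8662, with no gene at 0 in all libraries of a group. The part of these cells in the Anln difference was not tested.

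Cdca3, a trigger of mitotic entry that works with a ubiquitin ligase (chr6:124829547-124833701), was at 2.4, 0 and 0 in controls and at 154, 119 and 217 in RasV12 libraries (6.73 ± 1.2, adjusted p = 0.00462). The chromosome genes had positive values without passing. Mki67, the proliferation antigen Ki-67, was at 0, 11.2 and 105 against 498, 307 and 342 (5.11 ± 1.47, adjusted p = 0.055), and Top2a, topoisomerase II, at 26.7, 109.9 and 15.3 against 131, 301.5 and 601 (2.97 ± 0.87, adjusted p = 0.0589). Both lay above all controls. The condensin subunits Ncapd2 and Ncapg overlapped between the groups (adjusted p = 0.962 and 0.239).

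Of the 17 calls in GFP+ cells, 10 remained without each of the 6 libraries in turn: Cdk1, Ccnb1, Plk1, Cdc20, Cdca8, Psrc1, Kif23, Anln, Ect2 and Cdca3. Without RasV12 GFP+ 3 the count was 10 of 43. That library ended the calls of Ccna2 (adjusted p = 0.0608), Aurka (0.105), Ndc80 (0.111), Cenpa (0.125), Cenpf (0.0654), Aurkb (0.0585) and Kif2c (0.0582). Aurka was also lost without Control GFP+ 1 or 2 or RasV12 GFP+ 2, Cenpa without Control GFP+ 1 or 2 or RasV12 GFP+ 1 or 2, and Ndc80 without Control GFP+ 2 or 3 or RasV12 GFP+ 1. Cenpf was lost without Control GFP+ 2 or RasV12 GFP+ 1 or 2, Aurkb without RasV12 GFP+ 1 or 2, and Kif2c without RasV12 GFP+ 1; the adjusted p of all lost calls was 0.0507 to 0.138. Plk1, Psrc1 and Ect2 passed under all 22 alternatives, with adjusted p up to 0.0305, 0.00744 and 0.0296.

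The remaining calls of the 17 ended under some setting. Subtracting the level of receptor genes, described below, left 6 calls (Cenpf, Ect2, Psrc1, Cdca3, Plk1 and Kif23) and ended those of Cdc20 and Cdca8 (adjusted p = 0.0705 and 0.0593), which passed in the other 21 alternatives. Over all genes the subtraction left 612 higher and 520 lower, in place of 1235 and 792. The highest adjusted p over the 22 alternatives was 0.144 for Cdk1, 0.186 for Ccna2, 0.113 for Ccnb1, 0.359 for Aurka, 0.497 for Ndc80, 0.29 for Cenpa, 0.134 for Cenpf, 0.215 for Aurkb, 0.67 for Kif2c, 0.0873 for Kif23, 0.395 for Anln and 0.055 for Cdca3. No sign changed in any of them.

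Other genes of the cycle were counted from lists outside the 45. Of 71 other mitosis genes tested, 12 (16.9%) were higher in RasV12 GFP+ cells and 1 was lower, against 4.14% and 2.65% of all genes. Their median log2 fold change was 2.65. By edgeR 4 were higher and 1 was lower, and by DESeq2 16 and 1. Over all 29835 genes edgeR called 684 higher and 438 lower, and DESeq2 3276 and 1631. Gtse1, a G2 protein that restrains p53, had the smallest adjusted p (8.91 ± 1.46, adjusted p = 0.00275), followed by the kinesin Kif18b, without reads in controls and at least 247-fold higher. Ckap5, a microtubule polymerase that nondividing cells also use, was the gene that fell, by 2.31 ± 0.40 (adjusted p = 0.00368), and Sgo1, which protects centromere cohesion, was at least 157-fold higher.

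Some genes of the preceding S phase rose too. Of 21 DNA replication genes, 7 (33.3%) were higher and 0 lower by limma-trend, against 4.14% and 2.65% of all genes. By limma-trend 9 were at an unadjusted p under 0.05. Of the same genes edgeR called 2 and DESeq2 called 6, all higher, against 684 and 3276 higher of all 29835 genes. Uhrf1, which maintains DNA methylation, had no reads in controls and was at least 207-fold higher (adjusted p = 0.000737), and the licensing factors Cdt1 and Cdc6 were at least 305-fold and 68.4-fold higher. Mcm7, a subunit of the replicative helicase, had a log2 fold change of 3.95 ± 1.02 (adjusted p = 0.0324).

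The core subunits that Cdc20 activates gave no call. Of 15 subunits of the anaphase-promoting complex, limma-trend called 0, with a median log2 fold change of 0.30 and 2 at an unadjusted p under 0.05; edgeR called 0 and DESeq2 called 1, lower. Among 16 DREAM and Rb family regulators, Rbl1, the pocket protein p107, was higher (5.07 ± 0.91, adjusted p = 0.00464) and Tfdp2, an E2F partner, was lower (-2.63 ± 0.58, adjusted p = 0.0152). The limma-trend counts, 0 of 15 subunits and 1 higher and 1 lower of 16 regulators, compare with 4.14% higher and 2.65% lower of all genes.

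In CD11b+ cells the same contrast gave 1 call. Ncapg, a condensin subunit (chr5:45669919-45700546), was at 86.2, 35.9 and 56.4 normalized counts in Control CD11b+ and at 1176.5, 1357 and 889 in RasV12 CD11b+ libraries (4.30 ± 0.99, adjusted p = 0.027). The groups lay far apart. The count of 1 of 43 higher and 0 lower compares with 2.97% and 2.39% of all genes, and 13 members were at an unadjusted p under 0.05. Of the members edgeR called 0 and DESeq2 called 6, all higher. Over all 29835 genes edgeR called 30 higher and 404 lower, and DESeq2 1291 and 1066. The median log2 fold change of the members was 2.11 against 0.74 over all genes, and 39 of 43 were positive. The 3 RasV12 libraries lay above the controls for 21 members, against 19.0% of all genes, and below for 1, Pttg1, against 8.59%.

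Other members had large values that did not pass. Kif4 had the largest, 4.55 ± 1.64 (adjusted p = 0.109), at 3.9, 85.3 and 5.2 in controls and at 223, 227 and 656 in RasV12 libraries. Prc1, which bundles the central spindle, was at 36.1, 181 and 65.1 against 1092, 1146 and 1127 (3.88 ± 1.30, adjusted p = 0.0906). Top2a was at 152, 299 and 118 against 900.2, 947 and 1575 (2.65 ± 0.87, adjusted p = 0.0865). In these 3 genes Control CD11b+ 2 was the highest control and still lay below every RasV12 library. Of the genes called in GFP+ cells, Cdca8 was at 72.9, 108 and 135 in Control CD11b+ against 236, 498 and 75.1, and Cdk1 at 267, 422 and 194 against 294, 482 and 802. The groups of both overlapped, as did those of Ccnb1, Plk1, Cenpa, Cdc20, Aurkb, Kif2c, Psrc1, Kif23 and Cdca3. For Ccna2, Aurka, Ndc80, Cenpf, Ect2 and Anln every RasV12 CD11b+ library lay above every control, without passing the test.

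The Ncapg call was lost without some libraries. Leaving out Control CD11b+ 1, Control CD11b+ 3, RasV12 CD11b+ 1 or RasV12 CD11b+ 2 ended it (adjusted p = 0.0647 to 0.0958). Without RasV12 CD11b+ 1 and 2 together no member passed, but that leaves 1 library in the group, assumed to vary like the other groups. Over 21 alternatives the adjusted p of Ncapg was 2.361e-05 to 0.22, under 0.05 in 12. When only the 6 CD11b+ libraries were fitted, no member and no gene at all passed. Upper-quartile scaling moved the median of all genes from 0.74 to -0.08 and that of the members from 2.11 to 1.32, with 33 of 43 positive and 0 called.

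**Figure D3:**
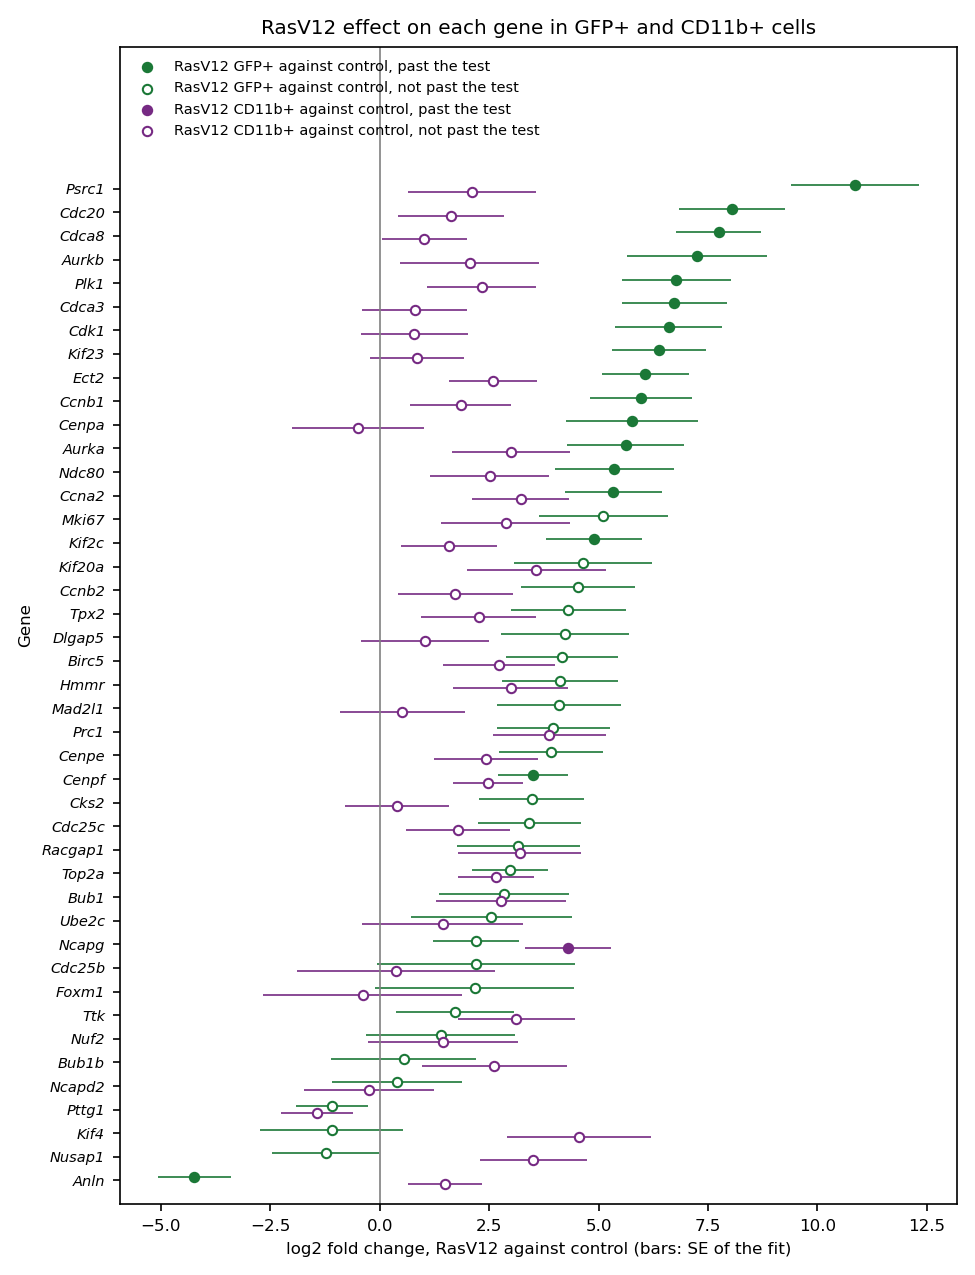
log2 fold change of RasV12 against control (horizontal axis, bars are the SE of the fit) for each gene in GFP+ cells (green) and CD11b+ cells (purple), filled where the adjusted p is under 0.05. Filled green points number 17 and the only filled purple point is Ncapg; Anln lies at -4.23 in GFP+ and 1.49 in CD11b+ cells.

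A level of reads unrelated to these genes differed between the groups. Olfactory and vomeronasal receptor genes, which brain cells of these types mostly do not use, were read as a background: the 3 Control GFP+ libraries had a mean level of 0.82 to 1.92 normalized counts per kb of exon, and the RasV12 GFP+ libraries of 1.84 to 3.37. Control CD11b+ 1, 2 and 3 had 4.599, 37.6 and 4.74, and RasV12 CD11b+ 78.5, 89.9 and 58.8. The median member, on the same scale, was at 0.684, 0.29 and 0.972 in Control GFP+ and at 22.1, 27.2 and 43.6 in RasV12 GFP+. Control CD11b+ had medians of 16.3, 42.5 and 13.1, and RasV12 CD11b+ of 96.9, 97.7 and 99.6. The members thus stood well above the receptor level in RasV12 GFP+ and close to it in RasV12 CD11b+ and Control CD11b+ 2.

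Per gene the contrast was sharper. The members above the 95th percentile of receptor genes numbered 22, 34 and 38 of 43 in RasV12 GFP+, 18, 2 and 8 in Control CD11b+ and 0, 0 and 1 in RasV12 CD11b+. In Control GFP+ they numbered 12, 16 and 11. With the receptor level subtracted by exon length, the median log2 fold change of the members between RasV12 and control CD11b+ cells was -0.24. Of the 43, 20 were positive and 2 were called, Prc1 higher and Kif23 lower. All genes then had a median of -0.55, with 627 called higher and 2327 lower. In GFP+ cells the members' median was 4.46 with 39 positive, against 0.27 over all genes. The share of the receptor level in each CD11b+ value was not tested.

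**Figure D4:**
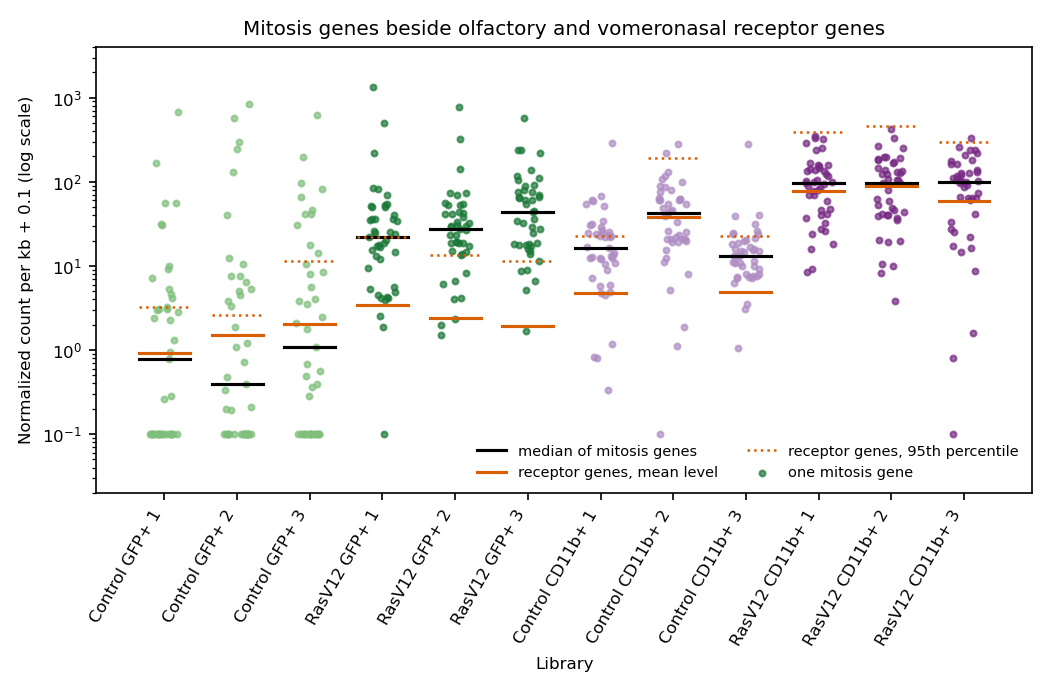
Normalized count per kb of exon plus 0.1 (log scale) of each of the 43 genes (points) in each library, with their median (black line) and the mean and 95th percentile of olfactory and vomeronasal receptor genes (orange lines). In RasV12 GFP+ the points lie mostly above the orange lines, and in RasV12 CD11b+ 0, 0 and 1 of 43 lie above the dotted line.

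Summed levels of markers of other cells differed between the groups as well. The 10 myeloid genes summed to 198 to 836.5 in Control GFP+, where Itgam, Csf1r and Aif1 were at 0, and 1055.5 to 2017 in RasV12 GFP+, where Tmem119 was at 0. Control CD11b+ libraries summed to 141678 to 462803 and RasV12 CD11b+ libraries to 43901 to 66601. For 10 neural progenitor and astroglial genes the sums were 196398.5 to 234280 (Control GFP+), 60195 to 108518 (RasV12 GFP+) and 5849.5 to 10556 (all CD11b+ libraries), with Olig2 at 0 in RasV12 CD11b+. Single genes of this list went both ways between RasV12 and control GFP+ cells. Of the 10, 5 had a positive log2 fold change (median -0.06, range -5.03 to 5.74). The 6 granule neuron progenitor genes summed to 5371 to 8859, 652 to 920.0, 239 to 1069 and 1715 to 2861 in Control GFP+, RasV12 GFP+, Control CD11b+ and RasV12 CD11b+. Mycn was at 0 in Control GFP+, Barhl1 in RasV12 GFP+, and Barhl1, Mycn and Gli1 in RasV12 CD11b+. Between RasV12 and control CD11b+ cells the sum was higher, but only 1 of 5 genes tested had a positive log2 fold change (median -2.34). In the same order of groups as these sums, 6 endothelial genes summed to 6899 to 7530.2, 1717.5 to 2617, 478.5 to 1355 and 3133 to 3943. The 7 lymphocyte genes summed to 0 to 87.4, 33.3 to 148, 104 to 1147 and 476 to 3799. Mitochondrial reads made up 20.1 to 30.4% in Control GFP+ and 13.3 to 17.7% in RasV12 CD11b+ against 0.63 to 2.62% in the other 2 groups. Their part in the results was not tested.

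The difference of the RasV12 effects, CD11b+ minus GFP+, was tested directly. It was lower for Cdca8 (-6.73 ± 1.38, adjusted p = 0.015) and Psrc1 (-8.74 ± 2.07, adjusted p = 0.0308) and higher for Anln (5.72 ± 1.18, adjusted p = 0.0158), so 1 higher and 2 lower of 43 against 2.06% and 2.34% of all genes. Cdca8 had an effect of 7.75 in GFP+ and 1.02 in CD11b+ cells, Psrc1 of 10.86 and 2.11, and Anln of -4.23 and 1.49. For the other 40 members no difference between the cell types passed, Cdc20 (-6.42 ± 1.72, adjusted p = 0.0523) and Kif23 (-5.53 ± 1.51, adjusted p = 0.0565) being the nearest. All 3 calls depended on single libraries. Without RasV12 GFP+ 2 there was 1 call, Anln, and without Control CD11b+ 3 there was 1, Cdc20; Cdca8 was then at 0.0524 and 0.0517, and Anln without Control CD11b+ 3 at 0.0521. The Psrc1 difference was lost without any 1 of Control GFP+ 1 or 2, RasV12 GFP+ 1, 2 or 3, or Control CD11b+ 1 or 3 (adjusted p = 0.0506 to 0.0845); without Control GFP+ 2 there were 5 calls.

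Within the tumors, CD11b+ cells had higher values than GFP+ cells for 8 members and lower for 1, against 29.8% and 10.2% of all genes, so the members' share of 18.6% higher lay under the background. Ttk, the checkpoint kinase Mps1 (chr9:83834689-83872389), was at 21.7, 84.8 and 7.9 in RasV12 GFP+ and at 1613, 1639 and 899.7 in RasV12 CD11b+ libraries (5.69 ± 1.34, adjusted p = 0.00626). Psrc1 was the lower gene, at 53.5, 27.7 and 2.4 in RasV12 CD11b+ (-7.35 ± 1.46, adjusted p = 0.00295). The members' median log2 fold change was 1.62 against 1.79 over all genes.

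The other 7 were Ncapg, Kif2c, Cenpf, Kif20a, Bub1, Cenpe and Cdc25c. In RasV12 CD11b+ libraries Kif20a, a motor of the central spindle, was at 1266, 742 and 456 (adjusted p = 0.0258), Bub1, a checkpoint kinase, at 1101, 210.4 and 512 (0.0306) and Cenpe, a kinetochore motor, at 1016, 1252 and 823 (0.0324). Cdc25c, a phosphatase that activates Cdk1, was at 508, 509.5 and 318 (0.04). The groups lay apart in all 9; over all members CD11b+ lay above GFP+ for 21 and below for 1, against 36.0% and 14.8% of all genes. Without RasV12 CD11b+ 1 and 2, the libraries with the fewest reads, Psrc1 was the 1 call left, in a fit with 1 library of that group, assumed to vary like the others; edgeR also called Psrc1 alone. With the receptor level subtracted the members' median was -1.43, and 1 member was called higher, Ttk, and 8 lower: Psrc1, Cdca8, Mad2l1, Cdca3, Ncapd2, Plk1, Kif23 and Ccnb1. Of the 9 calls above, 2 were shared with these, Ttk and Psrc1. Under that subtraction the median over all 29835 genes was -0.47, with 2783 called higher and 5949 lower. Without RasV12 GFP+ 1, and without RasV12 CD11b+ 1, 5 calls were left. Bub1, Cenpe, Cdc25c and Kif20a each lost their call without at least 3 of the 6 libraries (adjusted p = 0.0515 to 0.127), Cdc25c without any of them.

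In the control cerebellum 22 members were higher in CD11b+ than in GFP+ cells and 1, Anln, was lower (-3.56 ± 0.84, adjusted p = 0.00872), against 19.3% and 6.91% of all genes. This comparison and the RasV12 comparison in GFP+ cells use the same Control GFP+ libraries, in which 6 members had no reads. Kif2c had the smallest adjusted p, at 296, 349 and 68.6 in Control CD11b+ and at least 236-fold higher (7.60 ± 1.10, adjusted p = 0.000508). Cdca8 was at least 146-fold higher (6.69 ± 0.97, adjusted p = 0.000512), and Kif23, at 44.7, 491 and 86.0, had a log2 fold change of 6.68 ± 1.07 (adjusted p = 0.000961). Control CD11b+ 2, the library of the group with the highest receptor level, was the highest of the 3 for Kif2c and Kif23 and not for Cdca8. The 3 CD11b+ libraries lay above the 3 GFP+ libraries for 24 members and below for 2, against 32.9% and 12.7% of all genes. The members' median was 3.88 against 1.80 over all genes. Under quantile scaling these were 1.79 and -0.02.

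By role the calls were 6 of 10 entry regulators, 6 of 9 kinetochore and checkpoint genes, 1 of 3 anaphase genes, 2 of 3 passenger genes, 3 of 7 spindle genes, 3 of 6 cytokinesis genes besides Anln, and Cdca3. None of the 4 chromosome genes passed limma-trend, with 2 at an unadjusted p under 0.05, and edgeR and DESeq2 called 0. Leaving out each library kept 14 of the 23 calls. Those of Ccna2, Plk1, Aurka, Bub1, Ttk, Ndc80, Aurkb, Hmmr and Dlgap5 were lost without 2 to 5 of the 6 libraries (adjusted p = 0.05006 to 0.143). Without Control CD11b+ 2 and the 3 RasV12 CD11b+ libraries, the 4 with the highest receptor level, 16 members were called, and with the receptor level subtracted 5: Cenpf, Ect2, Cenpe, Kif23 and Cdc25c. Over all genes the calls, higher and lower, were 5765 and 2061 in the main fit. They were 3627 and 2865 without those libraries, and 1726 and 1932 with the subtraction.

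Levels per length, in FPKM as mean ± SD over 3 libraries, ranked the members differently in each group. In Control GFP+ Pttg1 led at 42.5 ± 6.68, then Anln at 12.1 ± 2.48. In RasV12 GFP+ Psrc1 led at 53.9 ± 23.9 and Pttg1 was second, as given above, followed by Cdc20 at 9.27 ± 4.80 and Ube2c at 8.60 ± 4.36, which lay within their spread of each other. In Control CD11b+ Pttg1 led at 16.8 ± 0.23. In RasV12 CD11b+ Hmmr led at 20.2 ± 5.06, followed by Ttk at 16.9 ± 5.11 and Cdc25c at 13.7 ± 3.41, which do not differ beyond their spread. Per kb of GENCODE exon, however, Cdc25c stood at 103, 104 and 64.7 normalized counts in these libraries. The median member stood at 96.9, 97.7 and 99.6, so the rank of Cdc25c depends on the exon length used. Birc5 and Ncapg were both at 9.70 FPKM in RasV12 CD11b+.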

How the data were processed

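RNA from sorted cells was extracted with Sepazol, and cDNA and libraries were made with low-input SMARTer and Nextera XT kits, which do not mark strand, per the labels' protocols, so reads of overlapping genes cannot be told apart. The submitters' processing notes name build GRCm38.p6, HISAT2 2.1.0, DESeq2 1.20.0, featureCounts, Subread 1.6.2 and bcl2fastq 2.17.1.14, without their roles. The authors deposited a signal per gene, normalized counts scaled by a factor per library, and FPKM values with the same scaling. Of the 54547 gene IDs, 98.5% matched GENCODE M21, which gave coordinates and exon lengths.

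Genes at 10 or more in at least 3 libraries were tested with limma-trend on log2(normalized count + 1) in R 4.3.3 (limma 3.58.1) over all 12 libraries, without covariates, for 5 comparisons, with Benjamini-Hochberg adjustment over 29835 genes. Fold changes are on that scale and understate those of low genes. Alternatives used edgeR 4.0.16 and DESeq2 1.42.0 on whole reads recovered from the deposited values, other scalings, filters, pseudocounts and left-out libraries, and subtraction of the receptor gene level. Where a group had no reads, its fold used a floor of 3 reads over that group, and where it had 1 to 3 an exact binomial 95% interval; both cover counting error only. Scripts were tested on simulated data.

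The members and lists were chosen with earlier results of these data known, and some genes of the lists are not reported here. Named with values were members that passed in at least 1 comparison, the member of each role with the highest mean FPKM in any group, and up to 4 genes of each other list by adjusted p; other members named were chosen after their values were seen. Leaving out the 2 libraries with the fewest reads or the 4 with the highest receptor level was decided after seeing the data.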

Additional observations from a re-analysis of the deposited data

Results flagged for a closer look

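The effects of RasV12 in GFP+ and in CD11b+ cells differed, by a test of the difference itself, for 3 members. These were 1 higher and 2 lower of 43, against 2.06% and 2.34% of all genes. Each of the 3 calls was lost when at least 1 single library was left out. For Cdca8 the difference was -6.73 (log2, CD11b+ minus GFP+), between effects of 7.75 and 1.02; 23 of 26 alternatives also passed. The difference for Psrc1 was -8.74, between 10.86 and 2.11, and 17 of 26 passed. For Anln it was 5.72, between -4.23 and 1.49, 22 of 26 passed, and the oligodendrocyte genes listed beside it differed the same way in 4 of 5. No explanation was tested.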

How the results depend on the processing

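Of the 53 gene calls named, each recomputed under its alternatives, 917 results stayed past the threshold, 251 fell short of it and 0 changed sign; the cause was not tested. The count of members called in GFP+ cells, 17, became 28 with upper-quartile rescaling, 7 with quantile normalization, 27 with array weights, 11 with only the 2 groups fitted and 6 with the receptor level subtracted, and 10 to 21 with 1 library left out; edgeR called 13 and DESeq2 24. In CD11b+ cells the count of 1 became 5 with a pseudocount of 5, 0 with upper-quartile rescaling, 2 with quantile normalization, 3 with FPKM, 4 with array weights, 0 with only the groups compared, 0 with edgeR, 6 with DESeq2, 2 with the receptor level subtracted, 0 without the 2 libraries with the fewest reads and 0 to 5 with 1 library left out. Between the cell types in tumors, 9 became 15 with a pseudocount of 5, with FPKM and with only the groups compared, 1 with edgeR, 14 with DESeq2, 1 without the 2 libraries with the fewest reads (leaving 1 library in that group) and 5 to 9 with 1 library left out; with the receptor level subtracted it stayed at 9, but as 1 higher and 8 lower in place of 8 higher and 1 lower, 2 of them shared. In controls, 23 became 9 with quantile normalization, 13 with edgeR and 5 with the receptor level subtracted, and 17 to 22 with 1 library left out. For the difference of effects, 3 became 5 with a pseudocount of 0.5, 10 with upper-quartile rescaling, 7 with array weights, 5 with edgeR, 14 with DESeq2, 5 with the receptor level subtracted and 1 to 5 with 1 library left out. Upper-quartile rescaling and quantile normalization moved the median change (log2) over all genes in GFP+ cells from 0.56 to 1.02 and -0.12, where that of the members was 4.12, 4.67 and 3.02. The counts over all genes tested, higher and lower, moved with the settings too. In GFP+ cells 1235 and 792 became 2155 and 533 with upper-quartile rescaling and 514 and 529 with quantile normalization. Array weights gave 2608 and 1489, edgeR 684 and 438, and DESeq2 3276 and 1631. In CD11b+ cells 886 and 713 became 2438 and 1104 with a pseudocount of 5. Array weights gave 2197 and 1611 there, edgeR 30 and 404, and DESeq2 1291 and 1066. Between the cell types in tumors 8896 and 3057 became 1536 and 3156 with edgeR and 2783 and 5949 with the receptor level subtracted. In controls 5765 and 2061 became 1818 and 2286 with quantile normalization and 2911 and 1702 with edgeR. For the difference of effects 615 and 697 became 431 and 2840 with upper-quartile rescaling and 1459 and 1670 with DESeq2. The depth of RasV12 CD11b+ 1 and 2 limits what low genes can show in those libraries.

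Same-numbered libraries did not deviate together from their group means: the correlations ran from -0.029 to 0.09 over 18 pairs, 0 of them over 0.1. The pairs include libraries of different genotypes. Whether same-numbered GFP+ and CD11b+ libraries came from the same mice cannot be told from this, and the labels do not say. With the replicate number as a block the counts were 17 in GFP+ cells, 1 in CD11b+ cells, 11 between cell types in tumors, 23 in controls and 2 for the difference.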
